A study of Mus musculus with 272 samples.

Results

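The transcripts found in the heavy part of sucrose gradients were compared between metaphase II (MII) oocytes, the arrested mouse egg, and zygotes, the 1-cell embryo that follows fertilization. A gradient separates transcripts by how far they sediment, and those carrying many ribosomes travel furthest. Each stage had 3 gradients, A, B and C, each loaded with about 100 oocytes or embryos and collected as 10 fractions. The heavy side is here fractions 6 to 10, so the comparison rests on 30 of the 272 libraries of the series, 15 of MII oocytes and 15 of zygotes. The 30 light-side libraries (fractions 1 to 5) of the same gradients and the 8 transcriptome libraries of the same stages, each from 20 pooled cells or embryos of the batch that was loaded, were used beside them. Strain, genotype, age and route of fertilization are not given in the sources used here, and no treatment other than the stage is named. Both were lysed in cycloheximide, a drug that holds ribosomes on their transcripts, and the labels call the fractions by number and give no monosome or polysome boundary.

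The mouse egg makes little new RNA from the end of its growth until after fertilization, so the early embryo depends on messages stored in the oocyte. Such messages are switched on and off largely through the length of their poly(A) tails, proteins bound to their 3′ untranslated regions and their recruitment to ribosomes. At fertilization a calcium signal releases the egg from metaphase arrest, the anaphase-promoting complex (APC/C) destroys cyclin B and securin, the zona pellucida is altered against further sperm, and the parental genomes are packed into pronuclei and replicated.

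The heavy libraries held 10.8 to 29.4 M reads, and replicate gradients of a stage correlated across genes with Pearson's r from 0.879 to 0.907 in MII oocytes and from 0.862 to 0.882 in zygotes after averaging fractions 6 to 10. Single fractions agreed less, down to 0.343 for fraction 10 of MII oocytes. Fraction 7 of MII gradient C stood apart, with 5467 genes at 1 CPM or more against 7382 to 10125 in the other MII heavy libraries, and the counts of called genes were recomputed without it. Values are CPM (reads of a gene per 1 M reads of the library), averaged over the 5 heavy fractions of a gradient with equal weight, so they give the share of a transcript among heavy-fraction reads and not an amount. A lower share per library and less RNA per embryo cannot be told apart. The labels do not say that the gradients came from separate collections of animals, so p-values measure only the spread between these samples. Changes are zygote minus MII on the log2(CPM + 1) scale, on which low genes appear to change less than they do. Genes are named as called where limma gave an adjusted p (Benjamini-Hochberg) below 0.05 and a change of 1 or more either way.

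Of 11048 genes tested, 492 were called higher in zygote heavy fractions (4.45%) and 274 lower (2.48%), 766 in all (6.93%). The changes of called genes ran from 1.01 to 4.81 upward and from 1.02 to 4.32 downward, and the median over all genes tested was 0.13. The 3 zygote values lay entirely above the 3 MII values for 490 of the 492 higher genes and entirely below for 274 of the 274 lower genes, beside 16.4% and 11.1% of all genes tested. The balance differed between methods. After quantile normalization, which brought the median over all genes to -0.01, 385 genes were called higher and 330 lower, edgeR on summed reads called 146 higher and 171 lower, and DESeq2 606 and 554. Leaving out 1 gradient in turn left between 264 and 589 calls, and 104 higher and 67 lower genes were called in each of the 6 such fits. Genes described as called are given with the number of these 6 fits that kept the call. A fit of all 8 stages of the series, which shares 1 estimate of the spread among them, called 122 higher and 94 lower. It also tested more genes, 14524, because its filter ran over the gradients of all stages, and the 2 differences were not told apart. It ended many of the calls described below. Many of the genes lost in it are named with their group, but not all.

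**Figure D1:**
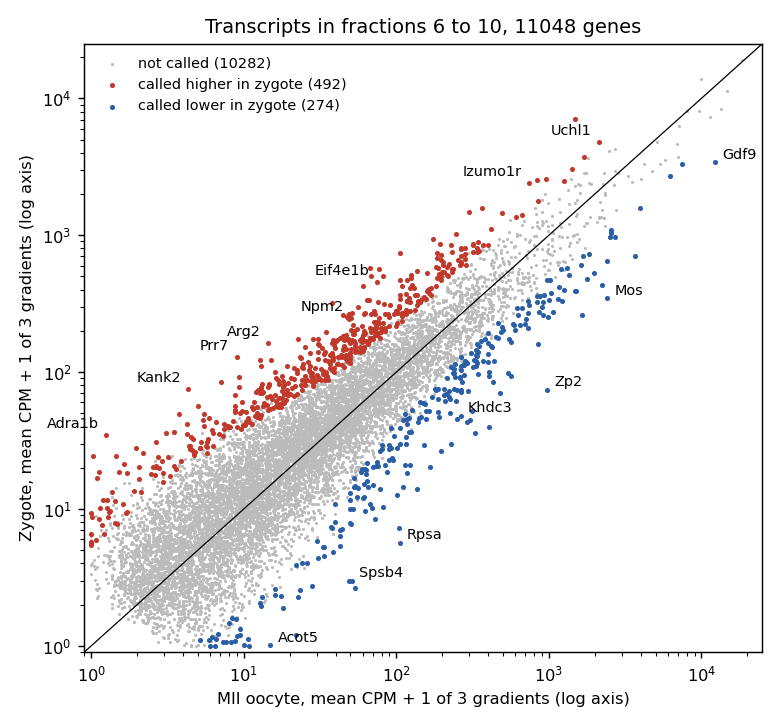
Mean heavy-fraction level (CPM + 1, log axes) of 11048 genes in MII oocytes (x) and zygotes (y), each the mean of 3 gradients; the line marks equal levels. Red points are the 492 genes called higher in zygotes, blue points the 274 called lower; Gdf9 and Zp2 lie far below the line and Eif4e1b and Arg2 above it.

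Transcripts of the egg coat and of oocyte growth fell more often than they rose. Of 20 genes tested for the zona pellucida, the egg surface and oocyte growth, 8 were called lower (Zp1, Zp2, Zp3, Gdf9, Oosp1, Oosp3, Astl and Plat) and 3 higher (Cd9, Izumo1r and Lhx8), and their median change was -0.80. Zp2, whose protein in the zona pellucida is cleaved after fertilization, was at 824, 1037 and 1046 CPM in MII gradients A, B and C and at 110.1, 53.3 and 56.2 CPM in the zygote gradients. The groups were far apart, and the transcript fell by 3.78 on the log2 scale (SE 0.32, limma adjusted p 0.00015, kept in 6 of 6). Zp1, a crosslinker of zona filaments, was at 1786, 3106 and 2339 CPM in MII oocytes and 568, 774 and 611 CPM in zygotes, a fall of 1.86 (SE 0.29, limma adjusted p 0.0027, kept in 6 of 6). Gdf9, the growth factor through which the oocyte directs its follicle cells, was an abundant transcript of the heavy fractions, at 10173, 15732 and 11111 CPM in MII oocytes and 3569, 4151 and 2532 CPM in zygotes. It fell by 1.86 (SE 0.31, limma adjusted p 0.0045, kept in 6 of 6). Bmp15, the partner ligand of Gdf9 in the follicle, had overlapping values of 2608, 2643 and 3285 CPM in MII oocytes and 3251, 2666 and 2559 CPM in zygotes (change -0.01, limma adjusted p 0.99).

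Plat, tissue plasminogen activator, is a classic message that is switched on during maturation. Its level was 723, 1892 and 1902 CPM in MII oocytes and 492, 418 and 256 CPM in zygotes, with gradient A the lowest of MII oocytes and still above every zygote value. It fell by 1.87 (SE 0.38, limma adjusted p 0.011), and the call was lost without MII gradient B (adjusted p 0.071). Zp3, the other major zona protein, was at 5851, 4833 and 8102 CPM in MII oocytes and 2870.02, 2149 and 3047 CPM in zygotes, and fell by 1.20 (limma adjusted p 0.028, up to 0.119 with a gradient left out, kept in 2 of 6). Oosp1 and Oosp3, secreted proteins of the oocyte, fell by 1.28 and 1.47, and Astl, the protease ovastacin that cleaves Zp2 protein, fell by 1.26. These calls were kept in 2, 2 and 1 of 6 fits, with limma adjusted p up to 0.162, 0.0987 and 0.157.

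The 3 rises in this list were in Izumo1r, Cd9 and Lhx8. Izumo1r (Juno), the egg receptor for sperm Izumo1, was at 849, 493 and 869.7 CPM in MII oocytes and 2448, 2039 and 2707 CPM in zygotes and rose by 1.74 (SE 0.29, limma adjusted p 0.0045, kept in 6 of 6). Cd9, a tetraspanin needed for gamete fusion, was at 31.6, 25 and 43 CPM in MII oocytes and 135, 107 and 124 CPM in zygotes. It rose by 1.87 (SE 0.36, limma adjusted p 0.0086), and its call was lost without zygote gradient A (adjusted p 0.0524). Lhx8, a transcription factor of the primordial follicle, rose by 1.27 and kept its call in 0 of 6 fits (limma adjusted p up to 0.113). All 11 calls of this list were lost in the fit of 8 stages.

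**Figure D2:**
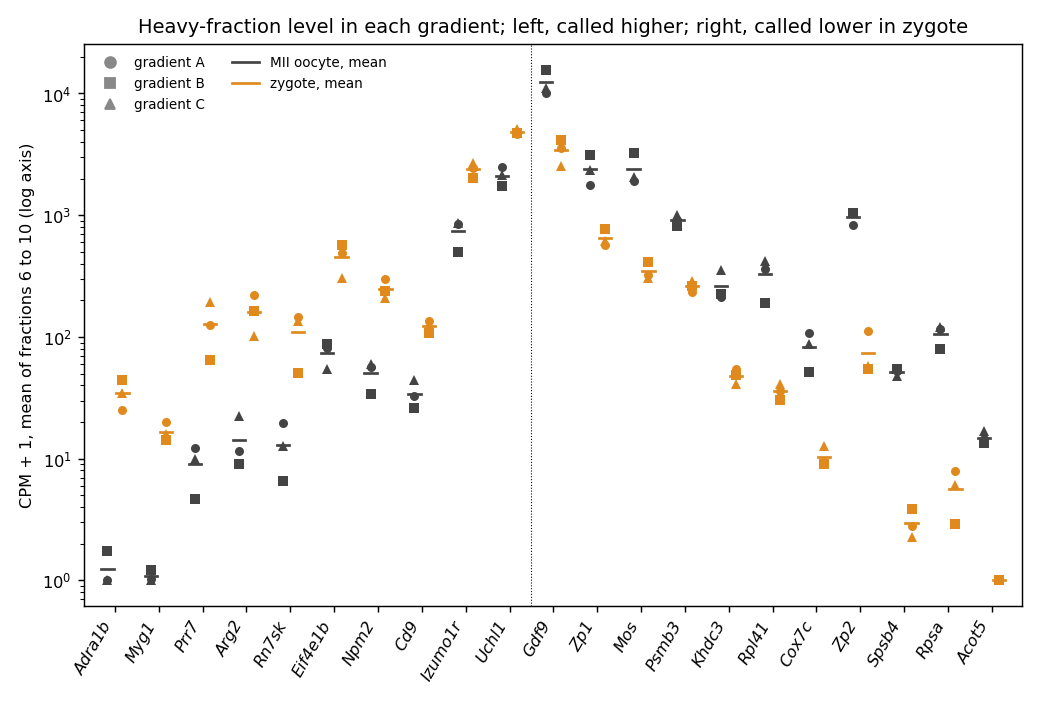
Heavy-fraction level (CPM + 1, log axis) of 21 named genes in each gradient, circles for A, squares for B and triangles for C, with bars at the mean of MII oocytes (grey) and zygotes (orange). No MII value overlaps a zygote value for the genes drawn, 10 higher in zygotes to the left of the dotted line and 11 lower to its right.

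Of the genes that run meiotic arrest, Mos alone was called. Among 24 genes of M-phase and arrest tested, 0 were called higher and 1 lower, with a median change of 0.10 that was -0.01 under edgeR and DESeq2. Mos, the kinase that starts the MAP kinase cascade holding the egg in metaphase, was at 1907, 3223 and 2069 CPM in MII oocytes and 321, 409 and 302 CPM in zygotes, a fall of 2.77 (SE 0.29, limma adjusted p 0.00053, kept in 6 of 6, lost in the fit of 8 stages). Mapk3, a kinase at the end of that cascade, was at 2229, 1602 and 2801 CPM and 1426, 1446 and 1707 CPM, and its change of -0.50 did not pass (limma adjusted p 0.32). Ccnb1, the cyclin whose destruction lets the egg leave metaphase, had overlapping levels of 773, 1569 and 1204 CPM in MII oocytes and 1552, 1179.8 and 1706 CPM in zygotes (change 0.37, limma adjusted p 0.53). Fbxo43 (Emi2), the APC/C inhibitor of the arrest, had a change of 0.99 (limma adjusted p 0.089), and Wee2, the oocyte kinase that inactivates Cdk1, of 0.93 (limma adjusted p 0.1). For these last 2 genes the zygote gradients lay at 314, 180.2 and 243 CPM and 535, 377 and 643 CPM, against 87.6, 162 and 122 CPM and 182, 271 and 379 CPM in MII oocytes.

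Of 30 APC/C and chromosome separation genes tested, 1 was called lower and 0 higher, and the median change was -0.14. The called gene was Ube2s, the enzyme that extends ubiquitin chains on APC/C targets, at 1166, 1064 and 1361 CPM in MII oocytes and 643, 545 and 507 CPM in zygotes (change -1.08, SE 0.26, limma adjusted p 0.023). Its call was lost whichever gradient was left out, with adjusted p up to 0.0894. Pttg1 (securin), a target of the APC/C, was the most abundant member at 7716, 8672 and 4665 CPM in MII oocytes and 3897, 4098 and 3187 CPM in zygotes. Its heavy-fraction change of -0.87 did not pass (limma adjusted p 0.11), and its place in the gradient is described further on.

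Among proteins that store messages or set their poly(A) tails, 5 of 35 genes tested were called higher (Eif4e1b, Cpsf4, Nanos1, Ybx2 and Zar1l) and 1 lower (Cpeb1), with a median change of 0.24 that was 0.02 after quantile normalization. Eif4e1b, the oocyte form of the cap-binding protein, was at 80.3, 86.6 and 53.5 CPM in MII oocytes and 485, 573 and 307 CPM in zygotes and rose by 2.60 (SE 0.33, limma adjusted p 0.0011, kept in 6 of 6). Every zygote value was more than 3 times the highest MII value. Cpeb1, which binds the cytoplasmic polyadenylation element of stored messages, was at 916, 909 and 668 CPM in MII oocytes and 266, 360.03 and 353 CPM in zygotes and fell by 1.34 (SE 0.27, limma adjusted p 0.011, kept in 3 of 6, up to 0.0721). Ybx2 (MSY2), the abundant RNA-masking protein of germ cells, was at 28.5, 15.5 and 31 CPM and 96.4, 82.1 and 82.8 CPM and rose by 1.81 (limma adjusted p 0.017, kept in 4 of 6, up to 0.0758). The rises of Cpsf4, a subunit of the factor that recognizes the polyadenylation hexamer (2.44), Nanos1, a translational repressor (2.32), and Zar1l, a maternal RNA-binding protein (1.79), were kept in 1, 1 and 1 of 6 fits (limma adjusted p up to 0.183, 0.118 and 0.12). In the fit of 8 stages Cpsf4 was the only one of these 6 still called. Of 29 genes of deadenylation and decay, 1 was called higher and 1 lower. Zfp36l2, which brings deadenylases to AU-rich messages, was at 14.7, 11 and 16 CPM in MII oocytes and 29.8, 48.5 and 80.3 CPM in zygotes, and Lsm1, an activator of decapping, at 91.3, 101 and 83.3 CPM and 37.6, 41.5 and 34.1 CPM. Both calls were lost whichever gradient was left out, with limma adjusted p up to 0.158 and 0.143, and in the fit of 8 stages. Btg4, the adaptor that links deadenylases to messages in the egg, had a change of 0.36 from a high level of 1857, 1918 and 1719.5 CPM in MII oocytes to 2174, 1985 and 3021 CPM (limma adjusted p 0.48).

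Cpeb1 and Cpsf4 proteins bind short elements at the 3′ end of messages, so the ends of changed messages are shown. Below are the last bases up to and including the polyadenylation hexamer, 30 in each, in the reference transcript (GENCODE M21, on GRCm38, sense strand) of 5 genes that fell and 5 that rose. They were picked after the sequences were seen, to show ends with and without the element, and are no sample. Of the 40 called genes that fell and have such a site in the table, 3 hold the element in these bases wholly before the hexamer. Of 30 that rose, 2 do. An element that runs into the hexamer was not counted, though some of these ends have one. Capitals mark the hexamer (AATAAA or ATTAAA) and, where one lies in these bases, a cytoplasmic polyadenylation element (TTTTAT or TTTTAAT). The sites lie in the 3′ UTRs of genes on chromosomes 17 (Wdr90), 5 (Galnt9), 11 (Gdf9 and Adra1b), 4 (Mos), 9 (Khdc3, Kank2 and Izumo1r), 14 (Npm2) and 13 (Nlrp4f).
Wdr90, lower: tTTTTATtttgtacagtttaaggaAATAAA
Galnt9, lower: ctccagcccctcacttgTTTTATaAATAAA
Gdf9, lower: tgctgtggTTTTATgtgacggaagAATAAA
Mos, lower: taccactagggcatatttttaggaAATAAA
Khdc3, lower: tgcaaacacaatttaaagtattctAATAAA
Adra1b, higher: ttttaaagaacttgacaaagtgttATTAAA
Kank2, higher: gtaaaaggacttaataaagctacaAATAAA
Npm2, higher: cccagcaagctcgcctagggccacAATAAA
Izumo1r, higher: gacatgtcctatcatggtaccttcAATAAA
Nlrp4f, higher: aattgctgctgttttgtgTTTTATATTAAA
Wdr90, Galnt9, Gdf9 and Nlrp4f hold the element within these bases, 17, 1, 10 and 0 bases before the hexamer, and the other 6 hold neither spelling here. No match says only that these letters are not in this window.

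A smaller share of the messages that rose than of those that fell held the element wholly before the hexamer. A hexamer was found in the last 40 bases of the reference transcript for 322 of 454 matched higher genes, 210 of 258 lower genes and 7495 of 9933 genes tested. Of these, 30 higher genes (9.32%), 45 lower genes (21.4%) and 1378 genes tested (18.4%) held TTTTAT or TTTTAAT on the sense strand within 100 bases before the hexamer. An element that overlaps the hexamer was not counted. The median 3′ UTR was 847.5 bases long in the higher genes, 522.5 in the lower and 933 in all, with 49.3%, 45.0% and 44.5% GC. The coding sequence had a median GC content of 55.9%, 54.4% and 52.7%. These shares are a description without a test, in a reference annotation of 1 transcript per gene. They covered 92.3%, 94.2% and 89.9% of the genes.

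Ribosomal protein transcripts that were called all fell. Of 75 cytosolic ribosomal protein genes tested, 13 were called lower and 0 higher, the median change was -0.62, and 58 of the 75 had a change below 0. Rpsa, a protein of the small subunit, had the largest fall of all genes called, from 115, 78.1 and 119 CPM in the MII gradients to 6.94, 1.9 and 5.07 CPM in the zygote gradients. It fell by 4.32 (SE 0.53, limma adjusted p 0.00096, kept in 6 of 6). Rpl41, a very short protein of the large subunit, was at 363, 190.2 and 422 CPM and 35.3, 29.2 and 40.4 CPM (change -3.11, limma adjusted p 0.00096, kept in 6 of 6). Rplp1, of the acidic stalk that contacts elongation factors, was at 200.3, 97.5 and 201 CPM and 22.6, 14.5 and 21.1 CPM (change -2.98, limma adjusted p 0.0012, kept in 6 of 6). Rps19 was low, at 10.6, 11.1 and 28 CPM in MII oocytes and 3.21, 0.0892 and 0.591 CPM in zygotes, and its call was kept in 1 of 6 fits (limma adjusted p up to 0.098). Ribosomal protein genes have many near-identical processed copies in the genome, between which the authors' counting could split reads, so single members are uncertain. Other genes with a 5′ terminal oligopyrimidine tract, the element that couples translation to growth signals, were also measured: of 16 elongation factors and similar genes, 0 were called, with a median of 0.15, and Rack1, which sits on the small subunit, was at 283, 445 and 331 CPM and 202, 289 and 192 CPM (limma adjusted p 0.23).

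Of 51 initiation factor genes, 2 were called higher and 2 lower, with a median of 0.17. These counts stand beside 4.45% higher and 2.48% lower over all genes tested, and no direction is read from them. Eif3k, a small subunit of eIF3, was at 279, 227 and 319.8 CPM in MII oocytes and 99.3, 84.9 and 99.9 CPM in zygotes and fell by 1.52 (SE 0.29, limma adjusted p 0.0084, kept in 6 of 6). Eif3g, the subunit that binds RNA, was at 29.3, 32.3 and 25.4 CPM and 5.72, 6.09 and 2.66 CPM and fell by 2.42 (limma adjusted p 0.026). Eif4h and Eif4b, cofactors of the helicase eIF4A, rose by 1.91 and 1.58. Eif3g, Eif4h and Eif4b each kept the call in 1 of 6 fits, with limma adjusted p up to 0.115, 0.0969 and 0.14. All 4 calls were lost in the fit of 8 stages.

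Messages for the mitochondrial respiratory chain were called in both directions. Of 81 nuclear oxidative phosphorylation genes, 6 were called higher and 10 lower, with a median of -0.29. Over all genes tested, 4.45% were called higher and 2.48% lower, and no result is read from the count of rises. Uqcr11, a small subunit of complex III, was at 231, 161 and 285 CPM in MII oocytes and 32.2, 10.2 and 44.2 CPM in zygotes, a fall of 3.11 (SE 0.48, limma adjusted p 0.0027, kept in 6 of 6). Cox7c, a small subunit of complex IV, was at 106, 50.8 and 86.8 CPM and 8.41, 7.97 and 11.8 CPM, a fall of 2.94 (SE 0.47, limma adjusted p 0.0036, kept in 6 of 6). Uqcrc2, a core subunit of complex III, fell by 1.98 (kept in 6 of 6), from 1045, 1113 and 1024 CPM to 324, 306 and 192 CPM, while Uqcrc1, its partner, fell by 3.34 with the call kept in 2 of 6 fits (limma adjusted p up to 0.096). The remaining falls of the list were kept in 0 to 5 of 6 fits. The 6 rises were in ATP synthase (Atp5j2, Atp5g1, Atp5g2 and Atp5a1) and complex IV (Cox5a and Cox5b), and were not alike in stability either. Atp5j2, a subunit of the membrane part of ATP synthase, was at 37.5, 23.7 and 70.2 CPM in MII oocytes and 189, 139.7 and 217 CPM in zygotes (change 2.14, limma adjusted p 0.0081, kept in 6 of 6), and Atp5g1, a subunit of its rotor ring, at 91.5, 34.7 and 119 CPM and 331, 233 and 381 CPM (change 2.08, limma adjusted p 0.011, kept in 6 of 6). The rises of Atp5g2 (1.71), Atp5a1 (1.19), Cox5a (1.42) and Cox5b (1.15) were kept in 2, 1, 2 and 1 of 6 fits, with limma adjusted p up to 0.0903, 0.161, 0.105 and 0.147. In the fit of 8 stages, 2 of the 6 rises (Atp5j2 and Atp5g1) and 5 of the 10 falls were called, and Uqcrc2 was not.

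Of 75 mitochondrial ribosomal protein genes, 5 were called higher and 4 lower, with a median of -0.03. Here too the shares over all genes tested were 4.45% and 2.48%, and no direction is read from the counts. Mrpl55 rose from 27.8, 23.9 and 28.4 CPM to 84.7, 92.3 and 100.3 CPM (change 1.75, kept in 4 of 6) and Mrps28 fell from 152, 126 and 151 CPM to 53.4, 36.1 and 47.5 CPM (change -1.64, kept in 5 of 6). Mrpl11 and Mrpl42, with changes of 2.74 and -2.55, kept their calls in 1 and 4 of 6 fits. Of these 4, only Mrpl55 was still called in the fit of 8 stages. Transcripts encoded in the mitochondrial genome, which are made and translated inside the organelle, were tested for 10 of 13 genes, 0 were called, and their median change was 0.70. CYTB was at 216, 112 and 217 CPM in MII oocytes and 417, 201 and 454 CPM in zygotes (change 0.95, limma adjusted p 0.14), so the groups overlapped.

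**Figure D3:**
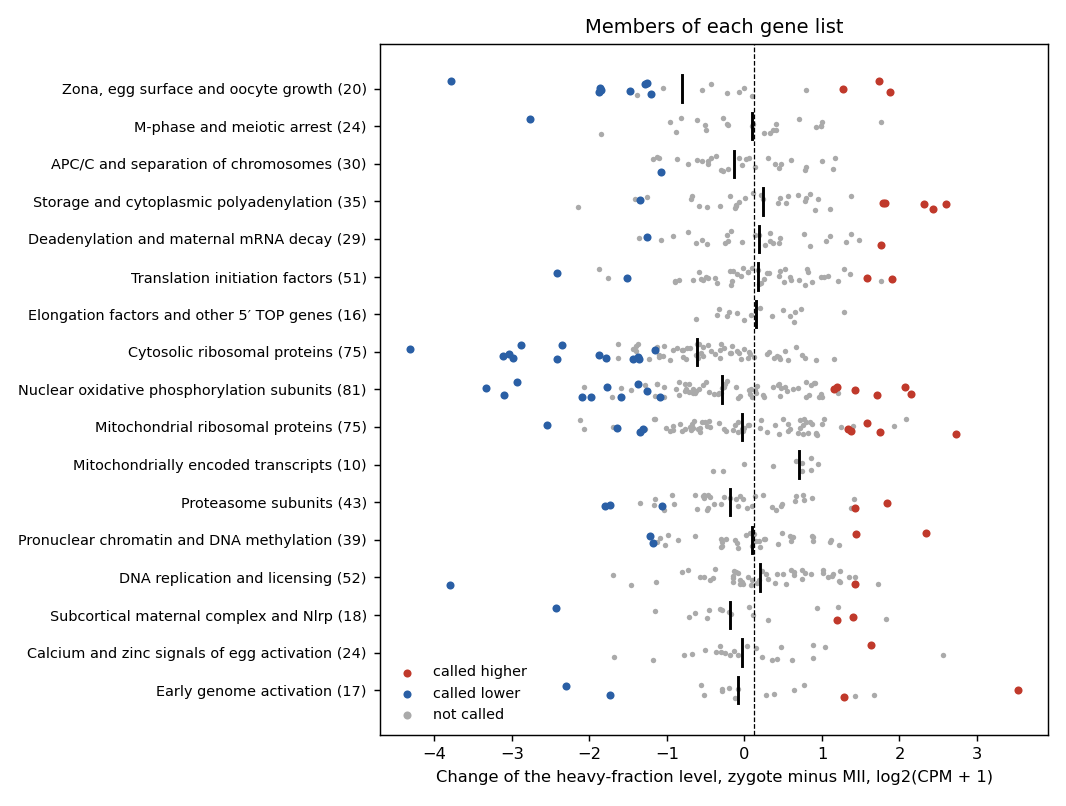
Change of the heavy-fraction level (zygote minus MII, log2 scale) of every tested member of 17 gene lists, the number tested in brackets. Red and blue points were called higher and lower, grey points were not called, black bars are list medians and the dashed line the median of all genes, 0.13. Cytosolic ribosomal proteins and the zona list lie furthest to the left.

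In the proteasome and pronuclear chromatin lists a few members were called each way, beside 4.45% higher and 2.48% lower over all genes tested, and no direction is read from these counts. Of 43 proteasome genes, 2 were called higher and 3 lower, with a median of -0.18. Psmb3 and Psmb6, subunits of the proteolytic core, were at 905, 822 and 995 CPM and 328, 355 and 509 CPM in MII oocytes. In zygotes they were at 233, 262 and 289 CPM and 96.8, 151 and 107 CPM, and both falls, of 1.79 and 1.74, were kept in 6 and 6 of 6 fits (limma adjusted p 0.0017 and 0.0056). Psmf1, an inhibitor of the core, and Psme3, an activator cap of the nucleus, rose by 1.84 and 1.43 and kept their calls in 3 and 3 fits (limma adjusted p up to 0.0536 and 0.118). Psme3 was not called in the fit of 8 stages.

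Of 39 genes of pronuclear chromatin and DNA methylation, 2 were called higher and 2 lower, with a median of 0.09. Npm2 (nucleoplasmin), the egg chaperone that helps to unpack sperm chromatin, was at 55.8, 32.8 and 59.3 CPM in MII oocytes and 296, 238 and 209.6 CPM in zygotes. It rose by 2.34 (SE 0.34, limma adjusted p 0.0017, kept in 6 of 6), with all zygote values above the MII values. Zfp57, which protects imprints, was at 422, 302 and 233 CPM and 1012, 698 and 835 CPM and rose by 1.43 (limma adjusted p 0.012, kept in 3 of 6). H1f8, the linker histone of the oocyte, was at 8212, 7733 and 6299 CPM and 2339, 3102 and 4410.03 CPM and fell by 1.21 (limma adjusted p 0.031). Dnmt1, the maintenance DNA methyltransferase, was at 744, 635 and 812 CPM and 291, 266 and 424 CPM and fell by 1.18 (limma adjusted p 0.023). The last 2 calls were each kept in 1 of 6 fits, with adjusted p up to 0.193 and 0.106, and of the 4 genes only Npm2 was still called in the fit of 8 stages. Of 52 replication and licensing genes, 1 was called higher and 1 lower, with a median of 0.20. These were subunits of 1 enzyme, DNA polymerase delta. Pold2, the accessory subunit, was at 94.3, 47.3 and 47.4 CPM in MII oocytes and 186, 181 and 128 CPM in zygotes, and Pold1, the catalytic subunit, at 8.7, 30.3 and 105 CPM and 4.93, 0.996 and 0 CPM. Each call was kept in 2 of 6 fits, with limma adjusted p up to 0.12 and 0.101, and lost in the fit of 8 stages.

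Of 18 genes of the subcortical maternal complex and related Nlrp genes, 2 were called higher and 1 lower, with a median of -0.19. Khdc3 (Filia), a member of that complex, was at 211, 225 and 353 CPM in MII oocytes and 53.5, 47.2 and 40.3 CPM in zygotes and fell by 2.43 (SE 0.33, limma adjusted p 0.0012, kept in 6 of 6). Uchl1, a deubiquitinase abundant in eggs, was at 2494, 1735 and 2126 CPM and 4619, 4715 and 5081 CPM and rose by 1.20 (limma adjusted p 0.019, kept in 3 of 6, up to 0.0876). Nlrp4f rose by 1.40 (kept in 2 of 6, adjusted p up to 0.0968). Of 24 genes of the calcium and zinc signals at egg activation, 1 was called higher and 0 lower, with a median of -0.03. Orai1, the plasma membrane channel that refills calcium stores, was at 99.4, 61.9 and 201 CPM in MII oocytes and 311, 265 and 457 CPM in zygotes (change 1.63, limma adjusted p 0.025, kept in 2 of 6, up to 0.115). Of the calls in both lists, Khdc3 alone was made in the fit of 8 stages.

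Genes known for their transcription at early genome activation were mostly too low to test, 23 of 40, and of the 17 tested 2 were called higher and 2 lower. Arg2, an arginase of mitochondria, was at 10.6, 8.09 and 21.4 CPM in MII oocytes and 219.8, 163 and 100 CPM in zygotes and rose by 3.53 (SE 0.46, limma adjusted p 0.0011, kept in 6 of 6). Pou5f1 (Oct4), a maternal and embryonic pluripotency factor, was at 178, 173 and 126 CPM and 343, 516 and 319 CPM and rose by 1.28 (limma adjusted p 0.022, kept in 1 of 6, up to 0.0851). Tcstv1 and Tcstv3, members of a multigene family named for the 2-cell stage, fell by 1.74 and 2.30. Tcstv1 was at 319, 193 and 236 CPM in MII oocytes and 64.3, 90.2 and 65.7 CPM in zygotes (limma adjusted p 0.007, kept in 6 of 6). Tcstv3 kept its call in 4 fits, and reads of the family could be split between copies. Arg2, Tcstv1 and Tcstv3 were not called in the fit of 8 stages. Of 12 noncoding RNAs tested, Rn7sk was called higher. This 7SK RNA, which holds the elongation factor P-TEFb inactive and is made by RNA polymerase III, was at 18.7, 5.61 and 11.7 CPM in MII oocytes and 144, 49.6 and 134 CPM in zygotes (change 3.07, SE 0.54, limma adjusted p 0.0058, kept in 6 of 6). The libraries were of polyA RNA, so its reads need not follow its amount, and how it was captured was not tested.

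Outside these lists, several of the largest rises were of genes at or near 0 in MII heavy fractions. Adra1b, the alpha-1B adrenergic receptor, was at 0, 0.743 and 0 CPM in MII oocytes and 24.1, 43.2 and 33.5 CPM in zygotes (change 4.81, SE 0.67, limma adjusted p 0.0015, kept in 6 of 6). It was not called by edgeR or DESeq2 on summed reads. Kank2, an adaptor of the cortical cytoskeleton, was at 4.15, 5.23 and 0.644 CPM and 39.7, 137 and 47.4 CPM, with zygote gradient B well above the other zygote values (change 4.11, limma adjusted p 0.0045, kept in 6 of 6). Myg1, a nuclease of mitochondria and nucleoli, was at 0.0216, 0.218 and 0.0143 CPM in MII oocytes and 19.2, 13.1 and 14.8 CPM in zygotes (change 3.93, limma adjusted p 0.0039, kept in 6 of 6). Its single fractions varied widely: in zygote gradient B fraction 9 was at 62.5 CPM and fractions 8 and 10 at 0 CPM. Bmp6, a ligand of the same superfamily as Gdf9, rose from 13.7, 10.7 and 0.403 CPM to 74.5, 113 and 84.2 CPM (change 3.86, limma adjusted p 0.009), and MII gradient C was the lowest value. Prr7, a membrane protein known from synapses, rose from 11.3, 3.63 and 9.01 CPM to 125, 63.2 and 193 CPM (change 3.81). Kctd21, an adaptor of cullin-3 ligases (3.96), Acy3, an aminoacylase (3.56), the histone gene H2bc12 (3.55), Fam214a (3.93) and the RNAs Gm16222 (4.39) and 2610035D17Rik (3.67) rose by between 3.55 and 4.39 and kept the call in 6 of 6 fits, as did Bmp6 and Prr7. H2bc12 belongs to a family of near-identical genes and its reads are uncertain. Antxr2, a receptor for matrix proteins, was at 0, 0.388 and 0 CPM and 8.04, 5.23 and 39.3 CPM, where zygote gradient C carried most of the rise, and its call was lost without MII gradient A or B (adjusted p up to 0.0755).

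Spsb4, Acot5 and Tor2a were among the largest falls besides Rpsa and Zp2. Spsb4, the substrate receptor of a ubiquitin ligase, was at 51.5, 53.1 and 46.5 CPM in MII oocytes and 1.82, 2.85 and 1.29 CPM in zygotes (change -4.13, SE 0.59, limma adjusted p 0.0017, kept in 6 of 6). Acot5, an acyl-CoA thioesterase, was at 13.4, 12.4 and 16 CPM in MII oocytes and 0.0239, 0 and 0 CPM in zygotes, where each gradient had at most 2 reads over its heavy fractions. It was called lower (limma adjusted p 0.0039, kept in 6 of 6), and with zygotes at the floor the fitted change is no bound. Tor2a, a torsin ATPase of the endoplasmic reticulum, fell from 99.4, 147 and 159 CPM to 28, 4.11 and 6.59 CPM (change -3.68, limma adjusted p 0.003, kept in 6 of 6). A further 5 of the 12 largest falls were kept in fewer fits: Wdr90, a protein of centrioles (-4.19, kept in 5), Galnt9, a glycosyltransferase (-3.64, 4), Gtf2h4, a subunit of TFIIH (-3.73, 3), Il1rap, a co-receptor for interleukin-1 (-3.56, 3), and Gne, the key enzyme of sialic acid synthesis (-3.75, 2). Their limma adjusted p rose to 0.0504, 0.0594, 0.0912, 0.0685 and 0.0817 with a gradient left out. Of the 24 largest changes, Kctd21, Fam214a, Bmp6, Acy3, Wdr90, Spsb4, Pold1, Zp2, Gtf2h4 and Galnt9 were not called in the fit of 8 stages. By edgeR on summed reads, Adra1b, Fam214a, Bmp6, Antxr2, Wdr90, Pold1, Gne, Gtf2h4, Tor2a, Galnt9 and Il1rap were not called, and by DESeq2 Adra1b, Pold1 and Gtf2h4. Of the list genes named above as called, edgeR did not call Astl, Oosp1, Lhx8, Zfp36l2, Lsm1, Cpsf4, Nanos1, Ybx2, Zar1l, Eif3g, Eif4h, Eif4b, Rps19, Uqcrc1, Cox5a, Cox5b, Atp5a1, Atp5g2, Mrpl11, Psmf1, Psme3, Zfp57, Pold2, Nlrp4f, Orai1 and Pou5f1, and DESeq2 did not call Eif4b. After quantile normalization Zfp36l2, Cpsf4, Nanos1, Eif4b, Cox5b, H1f8, Pold2, Zp3, Astl, Oosp1 and Lhx8 were not called.

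Most heavy-fraction changes were matched on the light side of the same gradients. Of the 492 higher genes, 387 (78.7%) were also up by at least 1 in fractions 1 to 5, and of the 274 lower genes 178 (65.0%) were down by at least 1, beside 15.9% and 11.8% of all genes tested. The median light-side change was 1.58 for the higher genes, -1.29 for the lower and 0.05 for all. Both sides come from the same 3 gradients a stage, so these are not separate samples. Zp2 was at 769, 833 and 617 CPM on the light side of MII gradients and 128, 94.7 and 123 CPM in zygotes, Npm2 at 106, 76.2 and 86.9 CPM and 484, 523 and 489 CPM, and Rpsa at 76.1, 69 and 149.7 CPM and 4.04, 5.8 and 8.31 CPM. Each moved the same way on both sides of the gradient.

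**Figure D4:**
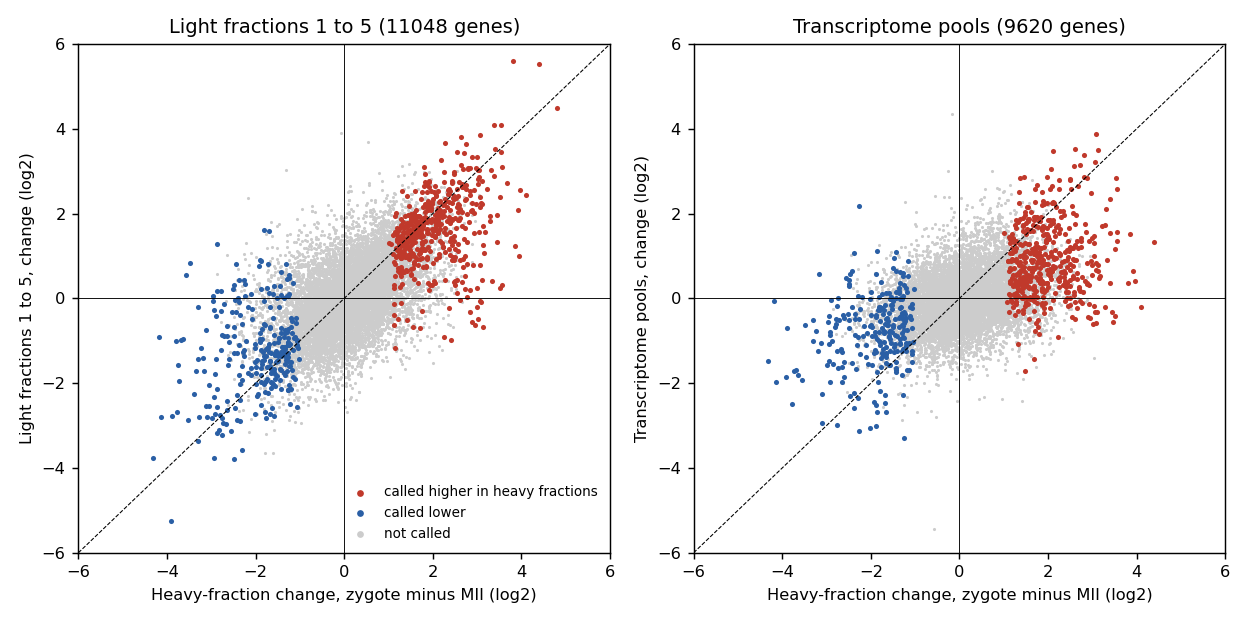
Change of each gene in the heavy fractions (x, zygote minus MII, log2 scale) against its change in the light fractions of the same gradients (left, y, 11048 genes) and in the transcriptome pools (right, y, 9620 genes). Red and blue points were called higher and lower in the heavy fractions, and the dashed line marks equal change; on the light side 387 of 492 red and 178 of 274 blue points lie at least 1 beyond 0 in the same direction.

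A shift along the gradient was tested as the heavy-minus-light difference within each gradient. Of 11927 genes, 13 moved toward the heavy side in zygotes (0.109%) and 26 toward the light side (0.218%), 39 in all (0.327%). In the 6 fits that leave out 1 gradient, 2 of the 13 and 6 of the 26 kept their call in every one. The 2 were Accsl and Oog3. Accsl, related to a plant enzyme of ethylene synthesis, had heavy levels of 1114, 1768 and 1158 CPM and light levels of 1019, 1034 and 1014 CPM in the MII gradients, and was at 1735, 1366 and 1928 CPM and 256, 203 and 210.02 CPM in zygotes (shift 2.53, SE 0.27, limma adjusted p 0.0015). Oog3, an oogenesin of the Pramel family whose copies may share reads, had heavy levels of 1531, 1677 and 1581 CPM and light levels of 1095, 869.6 and 830.1 CPM in the MII gradients. In zygotes it was at 1860.1, 1614 and 2668 CPM and 234, 149 and 229 CPM (shift 2.53, SE 0.26, limma adjusted p 0.0015). For both genes the heavy levels of the stages overlapped, and the light level was lower in every zygote gradient.

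The 6 genes that moved toward the light side and kept the call in every such fit were Dse, Fat1, Smc4, Plat, Pttg1 and Tbc1d14. Smc4, the ATPase core of condensin that compacts chromosomes, had heavy levels of 1001, 511 and 667 CPM and light levels of 31.7, 11.9 and 7.06 CPM in the MII gradients and was at 163, 159.8 and 304 CPM and 39.2, 41.6 and 55.7 CPM in zygotes (shift -3.42, SE 0.40, limma adjusted p 0.0022). Its heavy level was lower and its light level higher in every zygote gradient. Pttg1 was at 950.5, 1296 and 1011 CPM on the light side of MII oocytes and 3386, 2999 and 2766 CPM in zygotes (shift -2.37, SE 0.26, limma adjusted p 0.0015), and Plat at 227, 259 and 357 CPM and 532, 574 and 436 CPM (shift -2.76, SE 0.33, limma adjusted p 0.0022). Dse, an enzyme of dermatan sulfate, was at 10.6, 9.04 and 8.05 CPM on the light side of MII oocytes and 88.8, 76.4 and 79.4 CPM in zygotes (shift -4.34, limma adjusted p 0.0022), and Fat1, a giant cadherin, at 5.38, 9.25 and 8.25 CPM and 145, 132 and 104 CPM (shift -3.98, limma adjusted p 0.0015). Tbc1d14, a regulator of recycling endosomes named here after its values were seen, was at 40.9, 45.9 and 43.6 CPM on the light side of MII oocytes and 581, 582 and 548 CPM in zygotes, with heavy levels of 393, 461 and 454 CPM and 542, 605 and 767 CPM. Herc1, a giant ubiquitin ligase, and Scaper and Armc10 on the other side were among the 4 largest each way by the naming rule, and their calls were lost whichever gradient was left out (limma adjusted p up to 0.17, 0.249 and 0.179). Astl also moved toward the light side (shift -1.75, limma adjusted p 0.018), a call kept in 1 of 6 fits.

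**Figure D5:**
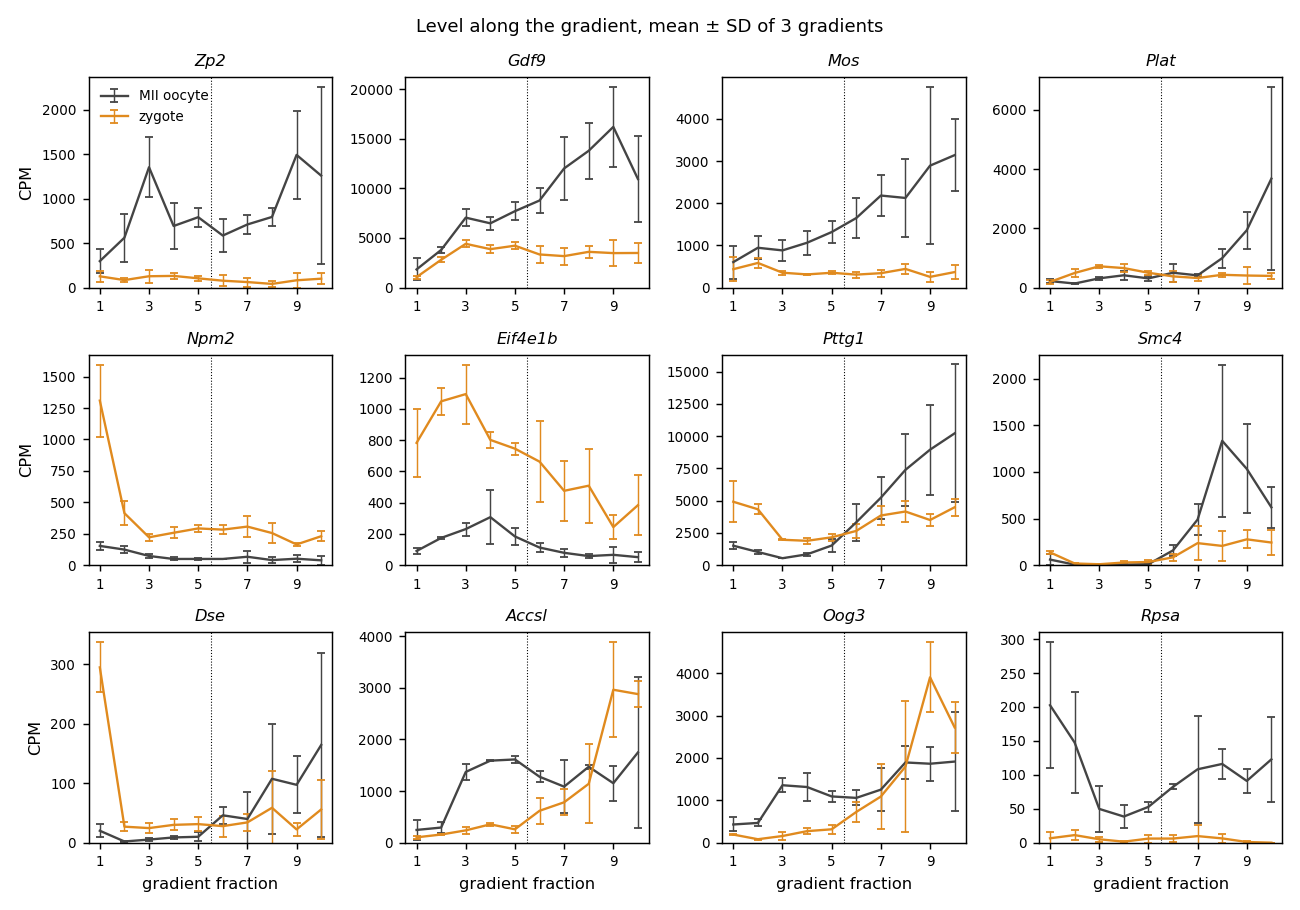
Level (CPM) along the 10 gradient fractions for 12 genes, mean of 3 gradients with SD bars (cut off at 0), MII oocytes grey and zygotes orange; the dotted line parts light from heavy fractions. Zp2, Gdf9, Mos and Rpsa lie lower in zygotes in the heavy fractions and over much of the light side, Npm2 and Eif4e1b higher in every fraction, and Smc4, Pttg1 and Dse have their MII maximum in the heavy fractions.

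The transcriptome pools, which share no library with the gradients, gave the share of the same messages among all polyA reads. Of 10461 genes, 840 were called higher in zygotes (8.03%) and 651 lower (6.22%), 1491 in all (14.3%). Of the 492 genes higher in heavy fractions, 187 were also called higher in the transcriptome, 38.0% of the heavy and 22.3% of the transcriptome calls, and 3 were called lower there. Of the 274 lower genes, 97 were called lower in the transcriptome, 35.4% of the heavy and 14.9% of the transcriptome calls, and 4 higher. The transcriptome was not tested, for low values, in 30 and 24 of them.

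Zp1, Zp2, Gdf9, Plat and Mos fell in both kinds of library. Zp2 fell in the pools from 897 ± 539 to 137 ± 4.94 CPM (mean ± SD, n = 4; change -2.48, limma adjusted p 1.5e-07), Zp1 from 486 ± 186 to 71.4 ± 14.3 CPM (change -2.68), Gdf9 from 7713 ± 1318 to 2302 ± 396 CPM (change -1.74), Mos from 1741 ± 266 to 224 ± 55.4 CPM (change -2.97) and Plat from 1828 ± 262 to 321 ± 75.1 CPM (change -2.52). Oosp1 and Oosp3 differed between the library kinds. Their heavy level fell, and the pools were at 3952 ± 203 and 5973 ± 563 CPM for Oosp1 (change 0.59, limma adjusted p 8.6e-05) and at 1375 ± 238 and 2640.4 ± 363 CPM for Oosp3 (change 0.95, limma adjusted p 3.5e-06), both short of a change of 1. Arg2 and Rn7sk rose in both, in the pools from 10.1 ± 2.55 to 79 ± 19.6 CPM and from 0.657 ± 0.222 to 23.5 ± 5.8 CPM (changes 2.85 and 3.87). Npm2 was at 457 ± 95.1 and 564 ± 63.5 CPM in the pools, a change of 0.32 that did not pass (limma adjusted p 0.057).

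Nuclear messages for ribosomes and mitochondria had medians of opposite sign in the pools and the heavy fractions. The heavy median of mitochondrial ribosomal proteins was near 0, at -0.03. Of 64 cytosolic ribosomal protein genes tested in the pools, 14 were called higher and 3 lower, with a median of 0.53 beside -0.01 for all genes, against -0.62 in the heavy fractions. Rpl41 was among the exceptions and fell in the pools too, from 64.9 ± 23.4 to 12.4 ± 2.53 CPM (change -2.25). Nuclear oxidative phosphorylation genes had 22 of 78 called higher and 3 lower in the pools, with a median of 0.54, and mitochondrial ribosomal proteins 23 of 73 higher and 0 lower, with a median of 0.59. All 13 transcripts of the mitochondrial genome were called higher there, with a median of 1.82, CYTB going from 1281 ± 322 to 4849 ± 1337 CPM (change 1.91, limma adjusted p 6.1e-09). Within the gradients, the median heavy-minus-light shift of these lists lay toward the heavy side in zygotes. It was 0.41 for cytosolic and 0.34 for mitochondrial ribosomal proteins, beside 0.07 for all genes. For nuclear oxidative phosphorylation genes it was 0.23, and for mitochondrial transcripts 1.12.

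An interaction term tested how far the heavy change went beyond the transcriptome's. With equal weights 650 of 11889 genes were higher (5.47%) and 481 lower (4.05%), 1131 in all (9.51%). The gradients varied more than the pools, which got 7.48 times the weight when libraries were weighted by kind, a fit added after the data were seen, and then 262 of these genes were called, 131 each way. The calls of single genes named here passed in both fits. Of cytosolic ribosomal proteins, 18 of 75 were lower and 0 higher with equal weights, with a median of -0.95, and of mitochondrial transcripts 3 of 13 lower, with a median of -1.17, beside 0.11 for all genes. The 3 mitochondrial calls were low in the heavy fractions, with means of 8.61, 6.65 and 0.351 CPM over the gradients of both stages. On the log2(CPM + 1) scale a low gene can come out lower than its transcriptome for that reason, and this part was not tested. Nuclear oxidative phosphorylation genes had 0 of 81 higher and 11 lower (median -0.72). Other lists lay the other way: M-phase and arrest had 4 of 24 higher and 1 lower (median 0.60), deadenylation and decay 4 of 31 higher and 1 lower (median 0.39), and pronuclear chromatin 5 of 39 higher and 0 lower (median 0.22). These list counts are from the fit with equal weights. Oosp3 was lower by 2.42 beyond its transcriptome (adjusted p 0.002 with equal weights in limma and 0.008 weighted), Tcstv1 by 1.84 (0.0022 and 0.02), and Npm2 higher by 2.02 (0.0022 and 0.018). Astl was higher by 2.04 (0.0059 and 0.033 in limma): its pools fell from 519 ± 94.5 to 52.7 ± 14.7 CPM (change -3.30) and its heavy level by 1.26.

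The 4 largest each way were Adra1b (4.81), Kank2 (4.30), Lmbrd2 (4.01) and Ss18l1 (3.93) upward and Cldn34b2 (-4.45), Wdr90 (-4.13), Gne (-3.88) and Idh3g (-3.74) downward. Cldn34b2, of the claudin family of junction proteins, fell in the heavy fractions from 78.1, 31.5 and 35.7 CPM to 11.4, 4.76 and 10.6 CPM while the pools rose from 11.2 ± 5.56 to 50.1 ± 3.7 CPM (change 2.17, limma adjusted p 5.9e-08). Ss18l1, a subunit of neuronal chromatin remodelling complexes, rose in heavy fractions from 0.41, 2.83 and 1.73 CPM to 37.3, 13.8 and 37.7 CPM and was at 11.3 ± 3.96 and 7.97 ± 1.58 CPM in the pools. Lmbrd2 rose from 3.01, 0.124 and 0.0502 CPM to 17.3, 10 and 30 CPM and was at 25.6 ± 5.46 and 17.4 ± 5.06 CPM in the pools. Idh3g, a subunit of a mitochondrial dehydrogenase of the citric acid cycle, fell from 34.2, 39.1 and 51.1 CPM to 12.5, 5.43 and 0.172 CPM and was at 3.51 ± 1.82 and 5.37 ± 1.29 CPM. The heavy-fraction calls of Cldn34b2, Ss18l1, Lmbrd2 and Idh3g were kept in 1, 4, 2 and 3 of 6 fits (limma adjusted p up to 0.155, 0.0574, 0.0863 and 0.114) and lost in the fit of 8 stages, and edgeR did not call Lmbrd2 or Idh3g. The 2 kinds of library also differ in level for single genes, with Adra1b at 0.0543 ± 0.0627 and 0.0484 ± 0.0559 CPM in the pools of both stages and 24.1 to 43.2 CPM in zygote heavy fractions, and the part of this in the result was not tested.

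Levels in the neighbouring stages are given for orientation. Zp2 had 782 ± 343 CPM in heavy fractions of germinal vesicle (GV) oocytes, the stage before maturation (mean ± SD, n = 3), 969 ± 126 in MII oocytes, 73.2 ± 32 in zygotes and 112 ± 98.5 in 2-cell embryos. Mos had 2575 ± 355, 2399.7 ± 718, 344 ± 56.7 and 21 ± 17.8 CPM over these 4 stages, and Gdf9 8055 ± 349.8, 12338 ± 2976, 3417 ± 819.8 and 1029.8 ± 120.4 CPM. For these 3 genes the zygote mean lay below the GV and MII means. Npm2 had 70.2 ± 25.9, 49.3 ± 14.4, 248 ± 44.2 and 469 ± 88.8 CPM, and Eif4e1b 68.6 ± 10.1, 73.5 ± 17.6, 455 ± 135 and 255 ± 54.5 CPM. Rpsa had its lowest mean of these stages in zygotes, with 119.8 ± 12.7, 104 ± 22.5, 4.64 ± 2.55 and 106 ± 65.5 CPM, and Rpl41 likewise with 293 ± 79.3, 325 ± 120.3, 35 ± 5.61 and 408 ± 55.1 CPM. Smc4 had its highest mean in MII oocytes, with 83.9 ± 16.6, 726 ± 250.1, 209 ± 82.5 and 10.6 ± 13.5 CPM. Myg1 was near 0 in MII oocytes and 2-cell embryos, with 22.2 ± 4.81, 0.0848 ± 0.116, 15.7 ± 3.11 and 0.0151 ± 0.0262 CPM. These levels are given side by side without a test.

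Markers of the oocyte were abundant at both stages. Of 12 oocyte markers all were tested and 7 were called lower in zygotes, with a summed heavy level of 40957 to 45220 CPM in MII gradients and 17353 to 18202 CPM in zygote gradients. Of 10 cumulus and granulosa markers in the table, 3 passed the filter and 0 were called, with summed levels of 39.8 to 91.2 CPM in MII and 44.5 to 86.5 CPM in zygote gradients. Col4a2 and Cyp19a1 had the highest mean levels of that list. Some other members were at or near 0 in most gradients. Amhr2 was at 0, 1.84 and 0 CPM in MII and 0, 0 and 0 CPM in zygote gradients, and Star at 0, 0 and 0 and 0.0119, 0.0114 and 0.02 CPM. Fshr was at 1.05, 1.7 and 0.1 and 0, 0 and 0 CPM, while Inha reached 9.13 CPM in MII gradient B. Of 8 sperm and spermatid markers, 3 passed and 0 were called, with summed levels of 83.1 to 111.6 CPM in MII and 70.5 to 161.6 CPM in zygote gradients. Most of that was Odf2, at 66.2, 101 and 83.5 CPM in MII and 52.9, 71.7 and 131 CPM in zygote gradients, a gene also expressed at centrosomes of other cells. Prm2, a protamine, was at 10.9, 4.5 and 9.9 CPM and 16, 15.4 and 23.3 CPM (change 1.08, limma adjusted p 0.32), with reads in every MII gradient.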

How the data were processed

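The series measured polyA RNA by sequencing (HiSeq X, paired 150-base reads) in 272 libraries; 68 of MII oocytes and zygotes enter the comparisons (30 heavy, 30 light, 8 transcriptome). Per the labels' protocols, libraries were made with a Smart-seq kit and Nextera. The submitters' processing notes list Trim Galore 0.6.7, FastQC, HISAT2 2.2.1, featureCounts 2.0.1, edgeR and build GRCm39. The authors deposited 1 table of CPM per gene symbol; 9 of its columns, all of other stages and not used in the comparisons, are recorded as signal as deposited because symbols with repeated values raise their sum above 1 M. Whole reads were recovered from the CPM steps: in the libraries used 100% of values came out whole within 0.05 reads. Of 15854 symbols, 159 in 76 groups had identical values, and 1 per group was kept, leaving 15771. Molecules carry no unique identifiers, so counting error is a lower limit.

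CPM was averaged over fractions 6 to 10 (heavy) or 1 to 5 (light) of each gradient. Genes at 1 CPM or more in 3 of 6 gradients (4 of 8 pools) were tested with limma 3.58.1 (trend, R 4.3.3) on log2(CPM + 1), only MII oocytes and zygotes in the fit. On recovered reads summed over fractions, edgeR 4.0.16 called 317 genes and DESeq2 1.42.0 called 1160. Named were the 12 largest called changes each way in the heavy fractions with a mean of 10 CPM or more at the higher stage and no overlap of gradients, the 4 largest each way by the same rule for the shift and the change beyond the transcriptome, and up to 4 called members a list, or the most abundant where fewer than 2 were called. Other list members (Ccnb1, Fbxo43, Wee2, Bmp15, Btg4, the remaining called zona, storage and respiratory genes, and the cell markers) were added after their values were seen. 1 gene that met the rule is not reported here. The scripts were tested on simulated data. The members and lists were chosen with earlier results of these data known. The labels do not say whether the letters A to C pair the gradients, and the main fits did not pair them. Deviations of the same letter correlated with r of 0.02, 0.08 and 0.05, which does not settle it. Promoter and protein sequences were not used; 3′ ends came from GENCODE M21 (GRCm38), and no coordinates are printed.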

Additional observations from a re-analysis of the deposited data

Results flagged for a closer look

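In 80 groups of 4 transcriptome pools, 1 for each stage of 40 genes, 6 had a pool far from the other 3 by Dixon's test, which chance flags in about 1 in 20 groups. Zp2 in zygote pool B was at 129 CPM, the lowest of 4 close values. Mrpl48, of the mitochondrial ribosome, was lowest in MII pool C at 23.3 CPM. Dnmt1 was highest in zygote pool D at 377 CPM, and Accsl in the same pool at 3276 CPM. Uchl1 was highest in MII pool A at 267 CPM. Myg1 was highest in MII pool D at 0.0528 CPM, with the gene near 0 in all 4 pools. Groups of 3 gradients were not tested.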

How the results depend on the processing

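The number of genes called in the heavy fractions, 766, was 133 with no filter on low values, 257 with fractions 8 to 10, 429 with fractions 7 to 10, 216 with all 8 stages in the fit, 317 with edgeR and 1160 with DESeq2. It ranged from 264 to 589 when 1 gradient was left out, lowest without zygote gradient A (264), MII gradient B (266) or MII gradient A (289), and was 438 without zygote gradient B. These fits rest on fewer samples, and the cause of the differing counts was not tested for any setting. It stayed within 645 to 880 under the other settings run, including 822 without fraction 7 of MII gradient C, a setting chosen after seeing the data. The transcriptome count, 1491, was 750 with a pseudocount of 5, 2055 with one of 0.1, 2103 with edgeR on recovered reads, 1166 with a minimum of 5 CPM and 1408 to 1610 with a pool left out. The count beyond the transcriptome, 1131, was 262 with libraries weighted by kind and 1085 to 1649 with a gradient left out; after quantile normalization 511 were higher and 667 lower. The count of shifts, 39, was 1 with no filter, 72 with a minimum of 5 CPM, 20 with fractions 8 to 10, 24 with fractions 7 to 10, 18 with log2 values averaged per fraction, and 9 to 21 with a gradient left out (9 without MII gradient A or B).

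The main fits did not pair the gradients by letter, and 4 of 6 samples correlated best with their own letter. With the replicate block, 843 genes were called in the heavy fractions (740 of the 766 among them), 1491 in the transcriptome, 880 beyond it and 66 as shifts.

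Of named genes, 4 that were not called in the heavy fractions changed sign under some setting. COX1 (-0.00) was 0.08 without MII gradient A, 0.18 without MII gradient C, 0.40 without zygote gradient B (lowest with a gradient left out, -0.33), 0.02 with fractions 8 to 10 and 0.03 with fractions 7 to 10. Col4a2 was 0.03 without MII gradient B, 0.21 without zygote gradient A (lowest -0.52) and 0.43 with fractions 8 to 10. The heavy change of Fat1 was 0.15 without MII gradient C, 0.05 without zygote gradient C (lowest -0.28) and 0.08 with log2 values averaged per fraction. Odf2 was 0.09 without MII gradient B, 0.23 without zygote gradient A, 0.02 without zygote gradient B (lowest -0.41) and 0.27 with log2 values averaged per fraction.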
